A study of Mus musculus with 18 samples.

Results

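The mouse Dlk1-Dio3 domain on chromosome 12 is an imprinted region that carries a dense set of miRNA genes. Its members were taken by position. All mature miRNAs of the table that lie between 109.5 and 109.76 Mb on chromosome 12 were included, without regard to their level. This gave 116 mature miRNAs from 60 hairpins, out of 1900 distinct miRNA names in the table, with the first member starting at 109544588 and the last ending at 109747949. The positions in the table are those of build GRCm38, since 106 of the 116 members stand at exactly the RefSeq GRCm38.p6 position, although the submitters' processing notes name mm9.

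Small RNA was sequenced from NIH 3T3 cells, a line of mouse embryonic fibroblasts, in 18 libraries that form 6 groups of 3. The cells carried a doxycycline-inducible construct and were stable, puromycin-selected pools made by retroviral transduction. KDEL cells expressed SS-GFP-KDEL, the control, and had also been sorted for GFP. SUN1L cells expressed SS-HA-SUN1L-KDEL, the lumenal domain of SUN1, which acts as a dominant negative and uncouples the LINC complex, the bridge between nucleus and cytoskeleton. The SUN1L and KDEL groups therefore differ in cell pool and in sorting as well as in construct, and these cannot be told apart. All 6 groups received 1 µg/ml doxycycline for 48 h and grew on a fibronectin-coated polyacrylamide gel, either soft at 1 kPa or stiff at 308 kPa. The groups were KDEL on 1 kPa, SUN1L on 1 kPa, KDEL on 308 kPa, SUN1L on 308 kPa, and KDEL on 308 kPa with either 10 µM blebbistatin, a myosin II inhibitor, or 25 µM Y27632. Libraries with neither compound are called untreated. The study states that each condition had biological replicates.

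At this domain the protein-coding genes Dlk1, Rtl1 and Dio3 are expressed from the paternally inherited chromosome, and the noncoding RNAs Meg3, Rian and Mirg and the antisense transcript of Rtl1 from the maternally inherited one. The miRNAs are processed from the maternal noncoding transcripts. They are best known from the embryo, the placenta and the brain. Those made from the antisense strand of Rtl1, such as miR-127 and miR-433, are fully complementary to the Rtl1 mRNA, and the large cluster that begins with miR-379 and ends near miR-410 is known from neurons.

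The mature sequences of the members on which the results turn are given here as RefSeq lists them with build GRCm38.p6, 5′ to 3′. The seed, bases 2 to 8, is in capitals, because it is the stretch that pairs with target mRNAs and shows which members could share targets. The first 5 are the members abundant enough to be tested. miR-382-5p and miR-494-3p follow because they lay at or near the floor in some groups and above it in others, and the 3p arms of miR-379 and miR-411 because they have the same seed.
miR-379-5p: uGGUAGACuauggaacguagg
miR-541-5p: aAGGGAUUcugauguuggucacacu
miR-411-5p: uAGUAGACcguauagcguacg
miR-381-3p: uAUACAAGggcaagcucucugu
miR-300-3p: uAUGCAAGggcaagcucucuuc
miR-382-5p: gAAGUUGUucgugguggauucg
miR-494-3p: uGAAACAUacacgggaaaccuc
miR-379-3p: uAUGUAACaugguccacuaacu
miR-411-3p: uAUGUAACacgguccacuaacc

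RefSeq held 108 of the 116 members by name. miR-381-3p and miR-300-3p are the closest pair among the well detected members: they differ at 3 positions over their whole length, 1 of them inside the seed, so their seeds are not the same. The authors' counting could divide reads between such a pair, and their separate levels are uncertain to that extent. The 5p arms of miR-379 and miR-411 also have different seeds, and the only other name in the table with the seed of miR-379-5p was miR-1193-5p, a member of the domain that lay at the floor in every library. A few members share their seed with a miRNA made elsewhere in the genome. miR-329-3p (mean value 1.21) has the seed of miR-362-3p, whose mean value was 693, and miR-410-3p (mean 2.29) that of miR-344d-3p (mean 31.7).

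The values are the authors' normalized levels, with a lowest value of 1 that stands for no read or next to none, here called the floor. Above the floor, the values of each library were whole multiples of 1 step, worth 0.666 to 1.55 depending on the library, so the number of reads behind each value could be recovered (100% of values under 1000 reads were whole within 0.001 of a read). In 8 libraries a single read was worth less than 1 and could be hidden by the floor. By these reads the depth ran from 1361360 to 8485822 reads per library, and 0 reads of a miRNA allows up to 0.354 to 2.20 reads per 1000000 reads (RPM) by the limit of 3 reads, for counting error only. Blebbistatin replicate 3 stood furthest apart. It was the shallowest and had 501 names above the floor against 607 to 841 in the other 17. Its rank correlations with its 2 fellow replicates were 0.776 and 0.783, against 0.959 to 0.992 within the remaining pairs. SUN1L on 1 kPa replicate 2 was the next shallowest, with 2765837 reads. Its median value over the miRNAs past the filter for testing was 39.1, against 78.8 and 87.2 in its fellow replicates. Its 10 most abundant miRNAs held 78.4% of its reads, the largest such share of all libraries.

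The domain was expressed at a low level. Of its 116 members, 55 (47.4%) were above the floor in at least 1 library, against 1086 of the 1784 other names (60.9%). Of all member values, 82.7% lay at the floor, against 62.8% over the whole table. Only 5 members (4.31%) reached a value of 10 in at least 3 libraries, the filter for testing, against 476 of the other names (26.7%). The remaining 61 members were at the floor everywhere, and 25 of the 55 detected members were above it in no more than 3 libraries. The 4 members found in all 18 libraries were miR-379-5p, miR-541-5p, miR-381-3p and miR-134-5p. Fibroblast miRNAs were plentiful in the same libraries, with all 6 of the list chosen to check the labelled cell type above the floor in every library and miR-21a-5p at 372419 or higher. Some miRNAs of other lists were plentiful too. In the neural list miR-9-5p had a mean of 13566 (rank 57) and miR-128-3p of 2374, but miR-124-3p of 1.07. In the muscle list miR-206-3p had a mean of 725. In rank of mean level, miR-379-5p stood at 362 and miR-541-5p at 380 among all names. At about the same level was miR-122-5p, the liver miRNA, with a mean of 20.1 and values of 4.66 to 51.6.

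The domain as a whole gave 1926 reads out of 99794356, or 19.3 RPM. A handful of members made up most of this. miR-379-5p and miR-541-5p together held 37.7% of the domain's reads, the 5 most abundant members 63.9% and the 20 most abundant 92.9%. miR-379-5p was the highest member in 12 libraries and miR-541-5p in the other 6.

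The reads came mainly from the distal part of the domain. The 77 members from miR-379 to miR-3072, the large cluster that runs into Mirg, held 1776 reads (92.2%), 41 of the 55 detected members and all 5 that could be tested. The 31 members from miR-770 to miR-136, which lie in Meg3 or within the annotated span of Rtl1, held 71 reads (3.69%), with 10 members detected. The 6 members of miR-341, miR-1188 and miR-370 in Rian held 79 reads (4.10%), with 4 detected. miR-1906 in Meg3 and miR-882, which stand alone, were at the floor in every library. By the RefSeq annotation miR-541-5p (109742422 to 109742446) lies inside Mirg, which starts at 109734981. miR-379-5p (109709065 to 109709085), miR-411-5p (109710190 to 109710210), miR-300-3p (109724363 to 109724384) and miR-381-3p (109726870 to 109726891) lie in the stretch between the annotated ends of Rian and Mirg.

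**Figure D1:**
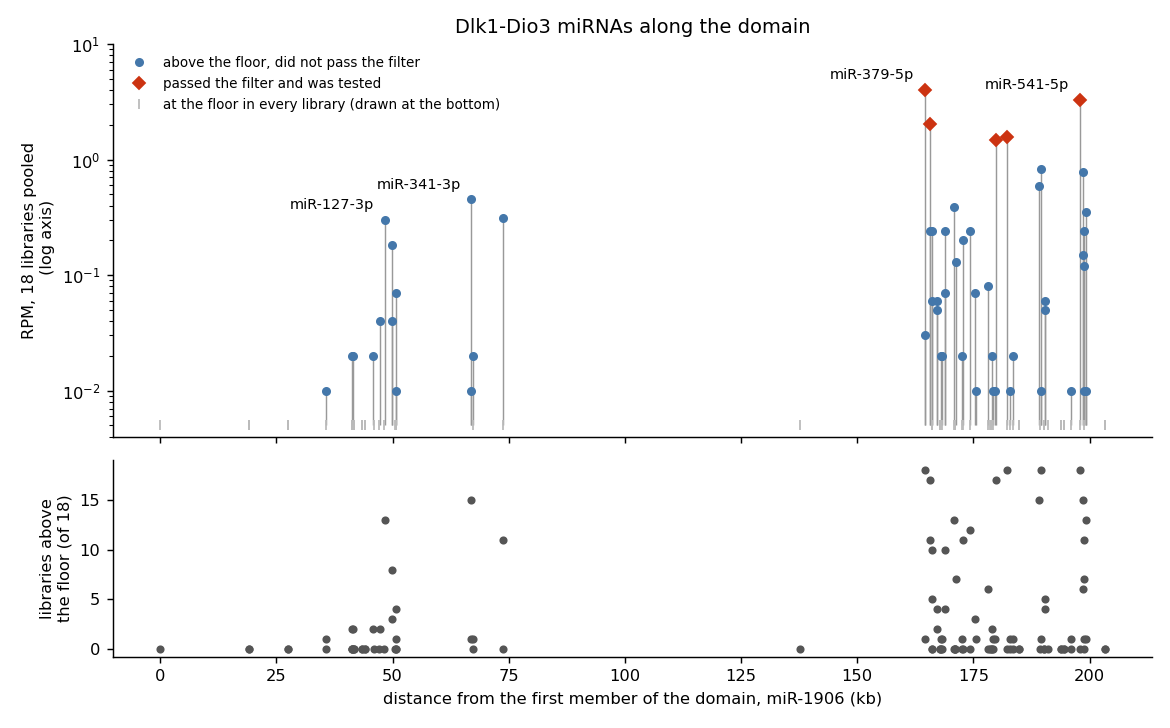
Each mature miRNA of the domain is drawn at its distance in kilobases from the first member, with pooled RPM of all 18 libraries above (log axis, members with no read at the bottom) and the number of libraries above the floor below. The tested members, red diamonds, all stand in the distal cluster, where miR-379-5p and miR-541-5p are highest, while miR-127-3p and miR-341-3p lead the proximal clusters at a lower level.

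Among the miRNAs antisense to Rtl1, miR-127-3p was the most abundant, with 30 reads in 13 libraries and values from the floor to 8.16, the highest in SUN1L on 308 kPa replicate 2. miR-434-5p followed with 18 reads in 8 libraries. miR-433-3p, complementary to Rtl1 like miR-127, had 4 reads, all in the libraries treated with Y27632. Both arms of miR-337 and miR-665 and all 4 products of miR-3070 were at the floor in every library. In Rian, miR-341-3p had 45 reads in 15 libraries with a highest value of 5.03, and miR-370-3p had 31 reads in 11 libraries with a highest value of 4.15.

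Where a hairpin gave enough reads, 1 arm usually held nearly all of them. In the 19 hairpins with at least 20 reads, the 5p arm was the major one in 7 and the 3p arm in 12, and the major arm held over 90% in 13. miR-379 gave 400 reads from the 5p arm and 3 from the 3p arm, so 99.3% were 5p (95% exact Clopper-Pearson interval 97.8 to 99.8). miR-541 gave 327 and 0, and miR-381 gave 0 and 156. miR-411 was less one-sided with 202 and 24 reads, or 89.4% from the 5p arm (84.6 to 93.1), and miR-369 least of all, with 12 and 24 reads, or 66.7% from the 3p arm (49.03 to 81.4). Since the 3p arms of miR-379 and miR-411 have the same seed, that seed was carried by 27 reads in all 18 libraries, 24 of them from miR-411. These intervals cover counting error only, because reads without molecular identifiers are not independent molecules. The 6 members on the minus strand, from miR-3544, miR-3071 and miR-299b, gave 2 reads.

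**Figure D2:**
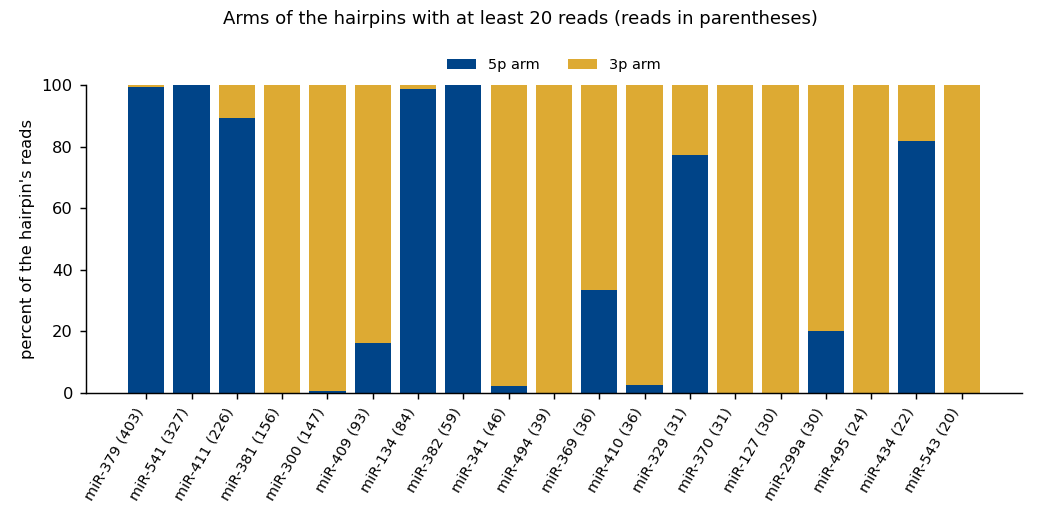
Bars give the percent of each hairpin's reads, pooled over the 18 libraries, from the 5p arm (blue) and the 3p arm (yellow), with the number of reads in parentheses, for the 19 hairpins with at least 20 reads. The 5p arm is the major one in 7 hairpins, among them miR-379, miR-541 and miR-411, and the 3p arm in 12.

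The other 2 large miRNA clusters of the genome put the level in proportion. A large cluster is here a run of at least 20 names with gaps of at most 10 kb. The 70 names of the chromosome 2 cluster from miR-466m to miR-669h were scarcer, with 21.4% detected, none past the filter and 1.10 RPM. The 34 names of the X-linked cluster from miR-743a to miR-465a were 73.5% detected, with 12 past the filter and 26.9 RPM. The X-linked cluster ranged from 1.42 to 132 RPM between libraries, and the whole Dlk1-Dio3 domain, which holds several runs, from 10.2 to 27.9. By the same rule its distal run of 77 members was 53.2% detected, with 17.8 RPM in all and 9.58 to 26.7 between libraries. Its run of 31 members from miR-770 to miR-136 was 32.3% detected, with 0.711 RPM.

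The domain's summed RPM had group means between 14.1 and 23.8. The values were 25.3, 19.7 and 22.9 in the 3 KDEL libraries on 1 kPa and 26.0, 17.7 and 26.6 in SUN1L on 1 kPa. On 308 kPa they were 27.9, 14.8 and 18.7 in KDEL and 27.5, 23.2 and 20.7 in SUN1L. Blebbistatin gave 12.7, 10.6 and 19.8, and Y27632 gave 18.9, 13.3 and 10.2. The means ± SD (n = 3) in descending order were 23.8 ± 3.43 in SUN1L on 308 kPa, 23.4 ± 4.97 in SUN1L on 1 kPa, 22.6 ± 2.83 in KDEL on 1 kPa, 20.5 ± 6.76 in KDEL on 308 kPa, 14.4 ± 4.85 with blebbistatin and 14.1 ± 4.43 with Y27632. Neighbours in this order overlapped. All 3 Y27632 libraries lay below those of KDEL on 1 kPa and SUN1L on 308 kPa, and overlapped their own control, KDEL on 308 kPa. Each Y27632 library lay below the control library nearest to it in library number (18.9 against 27.9, 13.3 against 14.8 and 10.2 against 18.7). This difference was not tested. The blebbistatin libraries overlapped the same control group, KDEL on 308 kPa, through replicate 3 alone. Without it the mean was 11.6, and the remaining values, 12.7 and 10.6, lay below the lowest control, 14.8. Their 95% counting intervals, 10.2 to 15.5 and 8.16 to 13.5, overlapped that of this control, 11.7 to 18.5. RPM is a share of all recovered miRNA reads. In bulk RNA, fewer cells that make these miRNAs, less RNA in each cell and more reads of other miRNAs cannot be told apart.

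**Figure D3:**
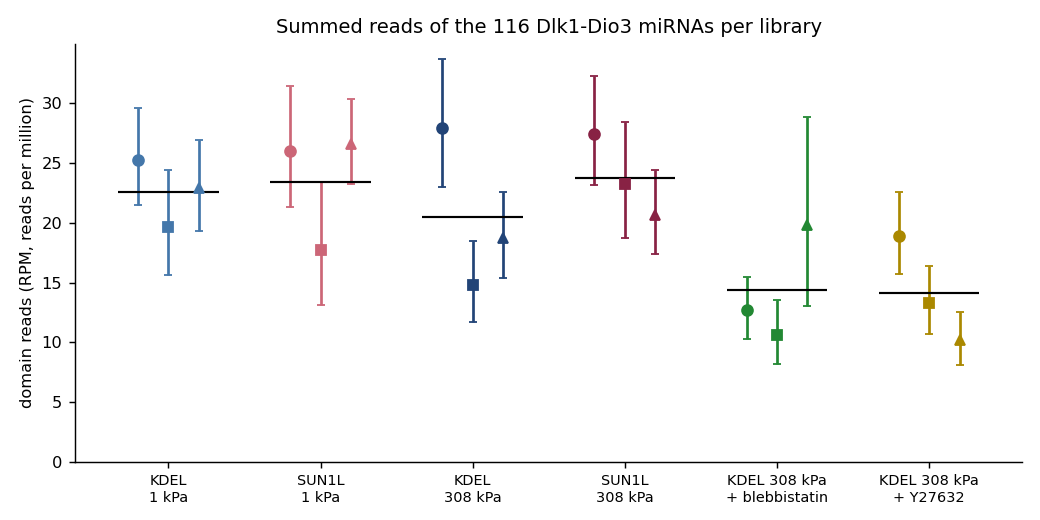
Points give the summed RPM of the 116 members in each library, with 95% exact Clopper-Pearson intervals for counting error, and the lines give group means (circle, square and triangle are replicates 1, 2 and 3). The 2 inhibitor groups have the lowest means, 14.4 and 14.1, and overlap untreated KDEL on 308 kPa (14.8 to 27.9), for blebbistatin through replicate 3 alone.

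miR-379-5p, the first miRNA of the distal cluster, had a mean value of 22.0 over the 18 libraries. Its values were 36.9, 25.5 and 26.2 in KDEL and 35.2, 16.6 and 30.0 in SUN1L on 1 kPa. On 308 kPa they were 41.9, 6.35 and 11.9 in KDEL and 36.4, 28.6 and 23.1 in SUN1L. Untreated KDEL on 308 kPa thus held both the highest and the lowest value of all libraries. Values were 13.3, 7.14 and 10.3 with blebbistatin and 20.1, 13.0 and 13.2 with Y27632, all within the range of their control.

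miR-541-5p, encoded in Mirg, had a mean value of 17.8 and varied less. On 1 kPa it had values of 26.8, 20.2 and 14.6 in KDEL and 17.6, 11.9 and 26.0 in SUN1L. On 308 kPa these were 26.4, 16.9 and 16.5 in KDEL and 21.6, 21.8 and 30.8 in SUN1L, so that all 4 untreated groups overlapped. Blebbistatin libraries had 7.33, 9.53 and 9.03, below every other library, and Y27632 libraries 12.3, 17.01 and 14.1.

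miR-411-5p lies next to miR-379 and had a mean value of 11.2. On 1 kPa it had values of 10.1, 3.19 and 14.6 in KDEL and 4.15, 3.56 and 8.66 in SUN1L. On 308 kPa the values were 21.7, 14.8 and 13.7 in KDEL and 25.0, 16.3 and 14.4 in SUN1L. In SUN1L cells the soft and stiff libraries did not overlap, and in KDEL cells they did, by 1 library. Values were 10.0, 7.14 and 1 with blebbistatin, where replicate 3 was at the floor, and 15.6, 7.00 and 10.4 with Y27632.

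miR-381-3p and miR-300-3p were lower and scattered more. miR-381-3p ran from 1.29 in blebbistatin replicate 3 to 17.1 in SUN1L on 308 kPa replicate 1. miR-300-3p ran from the floor in the same blebbistatin library to 16.6 in SUN1L on 1 kPa replicate 3, while the other 2 SUN1L libraries on 1 kPa had 2.07 and 1.19. Of the members below the filter, miR-409-3p (mean 4.53) and miR-134-5p (mean 4.33), which limits the size of dendritic spines in rat neurons, were the most abundant. miR-409-3p had 5.03 to 7.11 in the 6 libraries on 1 kPa and 2.72 to 9.32 in the 6 untreated libraries on 308 kPa, and was at the floor in 2 blebbistatin libraries and 1 Y27632 library.

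**Figure D4:**
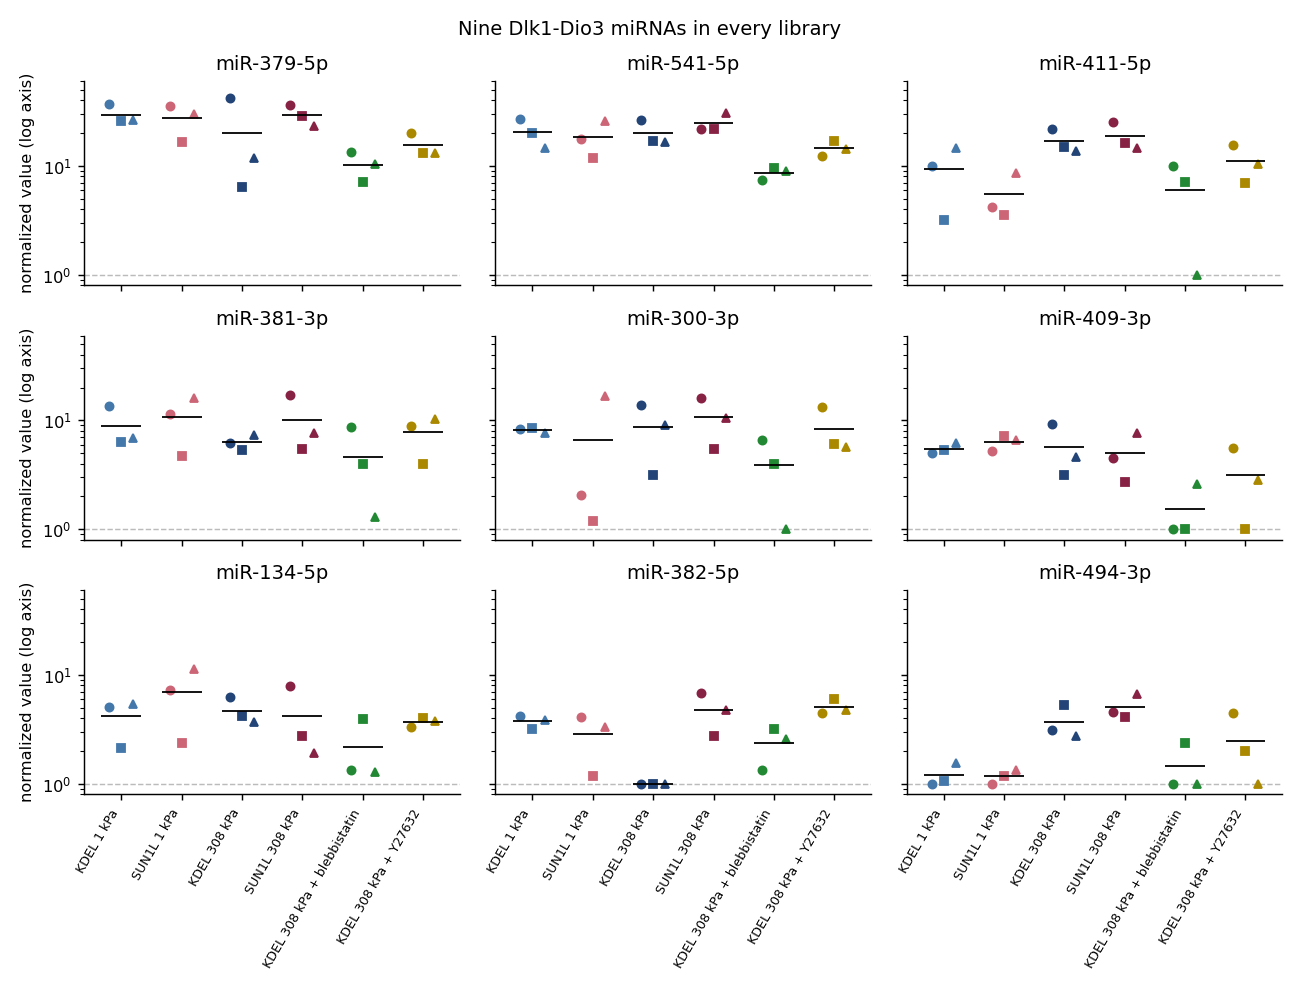
Each panel gives the normalized value (log axis) of 1 member in the 18 libraries by group, with lines at the group means and a dashed line at the floor of 1 (circle, square and triangle are replicates 1, 2 and 3). miR-541-5p is lowest in the 3 blebbistatin libraries (7.33 to 9.53), miR-411-5p does not overlap between SUN1L on 1 kPa and on 308 kPa, and miR-382-5p is at the floor in the 3 untreated KDEL libraries on 308 kPa.

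The effect of LINC disruption on one substrate was tested first. The 5 members that passed the filter were fitted with limma on log2(value + 1) together with all 481 miRNAs that passed, and a call means a Benjamini-Hochberg adjusted p under 0.05. Between SUN1L and KDEL on 1 kPa, 0 of the 5 members were called, where 13 of the 481 miRNAs (2.70%) were. Their log2 changes ran from -0.90 to 0.17 with a median of -0.17. The median of all miRNAs was -0.68, and -0.38 without SUN1L on 1 kPa replicate 2. Without blebbistatin replicate 3, which is in neither group but enters the shared estimate of spread, 211 of 480 miRNAs (44%) were called. With only the groups compared in the fit, 90 of 481 (18.7%) were. In both fits 0 of the 5 members were called. On 308 kPa 0 of 5 were called, where 15 of 481 (3.12%) were. All 5 members had positive log2 changes there, from 0.13 to 0.90 with a median of 0.33, and the median of all was 0.08. With quantile scaling 4 of the 5 were negative. miR-379-5p had the largest of them, 0.90 ± 0.53 (SE; limma unadjusted p = 0.107, adjusted p = 1.00), and its KDEL libraries spanned the values of all 3 SUN1L libraries.

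The response to substrate stiffness was tested within each cell pool. Between 308 and 1 kPa in KDEL cells, 0 of 5 members were called by limma, and 0 of 481 miRNAs (0%), of which 13 (2.70%) had an unadjusted p under 0.05 and none of these was a member. Without blebbistatin replicate 3, 35 of 480 miRNAs (7.29%) were called, and with only the groups compared in the fit 120 of 481 (24.9%). In both fits 0 of the 5 members were called. miR-379-5p had a log2 change of -0.92 ± 0.53 (SE; adjusted p = 0.769) and miR-411-5p of 0.96 ± 0.61 (adjusted p = 0.769), in opposite directions. In SUN1L cells 0 of 5 members were called, against 20 of 481 miRNAs (4.16%). miR-411-5p had the largest log2 change, 1.65 ± 0.61 (SE; limma unadjusted p = 0.0160, adjusted p = 0.0865), higher in all 3 stiff libraries than in any soft one. It would have passed the filter through the 3 KDEL libraries on 308 kPa alone (13.7 to 21.7), which are in neither group of this comparison. Those are also stiff-gel libraries, however. The SUN1L libraries on 1 kPa, at 3.56 to 8.66, lay below the filter value of 10. The median of all miRNAs in this comparison was 1.34, and 1.02 without SUN1L on 1 kPa replicate 2. With all libraries, 201 of the 481 (41.8%) had an unadjusted p under 0.05. With median-of-ratios scaling, which brought that median to 0.04, the log2 change of miR-411-5p was 0.44 (adjusted p = 0.452). With the authors' scaling but without blebbistatin replicate 3, which belongs to neither group but enters the shared estimate of spread, miR-411-5p passed the threshold (log2 change 1.65, limma adjusted p = 0.00398), but so did 335 of 480 miRNAs (69.8%). In RPM it was 0.972, 1.08 and 1.53 on the soft gel (4, 3 and 13 reads) and 4.17, 3.00 and 2.23 on the stiff one (22, 12 and 15 reads), without overlap. The share of all miRNAs without overlap is not given here. With values divided by the library sums, the log2 change of miR-411-5p was 1.24 (limma adjusted p = 0.0830), and the median of all miRNAs was still 0.89. The muscle list moved with this comparison, as the median of all miRNAs did. Its 3 miRNAs summed to 334 to 526 on the soft gel and 845 to 972 on the stiff one. Most of that sum was miR-206-3p, with a mean of 725 over the 18 libraries against 9.07 for miR-1a-3p and 1.29 for miR-133a-3p. The 9 miRNAs of the pluripotent stem cell list, whose floor sum is 9, summed to 9 to 9.33 and 10.4 to 14.1. The part of these lists in the result was not tested.

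The difference between the SUN1L and KDEL responses to stiffness was tested as an interaction. Of the 5 members 0 were called, where 1 of 481 miRNAs (0.208%) was. All 5 interaction terms were positive, from 0.30 to 1.23 on the log2 scale, and so was the median of all miRNAs, at 0.76. With median-of-ratios scaling 3 of the 5 were negative and with quantile scaling 2. The stiffness response of miR-411-5p was not shown to differ between the cell pools (interaction 0.69 ± 0.86 SE, limma adjusted p = 0.783).

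Inhibition of contractility was tested on the stiff gel. With blebbistatin 0 of 5 members were called by limma, and 0 of 481 miRNAs (0%), of which 43 (8.94%) had an unadjusted p under 0.05. All 5 members had negative log2 changes, from -1.63 to -0.54 with a median of -1.02, and the median of all miRNAs was -0.92. With median-of-ratios and with quantile scaling 2 of the 5 were positive, miR-379-5p and miR-381-3p, and with values divided by the library sums 1 was. Both miR-541-5p, at -1.10 ± 0.35 (SE; limma unadjusted p = 0.00721, adjusted p = 0.348), and miR-411-5p, at -1.63 ± 0.61 (unadjusted p = 0.0170, adjusted p = 0.348), were among the 43. The 3 blebbistatin libraries lay below all 3 controls for each of them. In RPM, however, miR-541-5p was 1.47, 1.99 and 5.14 with blebbistatin and 4.32, 3.07 and 3.09 without, since replicate 3 rested on 7 reads in the shallowest library and was there the highest of the 6. With values divided by the library sums instead of the authors' scaling, its log2 change was -0.44 and that of miR-411-5p -1.14 (adjusted p = 0.594 for both). With median-of-ratios scaling the change of miR-541-5p was -0.08 (adjusted p = 0.927). Without replicate 3 the median of all miRNAs was 0.07 in place of -0.92, the log2 change of miR-541-5p was -1.13 (limma unadjusted p = 0.00863, adjusted p = 0.916), and that of miR-411-5p was -0.88 (adjusted p = 0.992). The fibroblast list of 6 miRNAs, in which miR-21a-5p had the highest mean, moved with blebbistatin as well. It summed to 1654300 to 2502440 in the controls and 502459 to 1232800 in the treated libraries. The 3 miRNAs of the neural list summed to 16063 to 21880.5 in the controls and 2966 to 14162 in the treated libraries. The part of these lists in the result was not tested. With Y27632 0 of 5 members were called by limma, and 0 of 481 miRNAs (0%), of which 9 (1.87%) had an unadjusted p under 0.05 and none was a member. The log2 changes of the members ran from -0.60 to 0.19 with a median of 0.01, and the median of all was 0.43. The comparisons with blebbistatin and Y27632 share their 3 control libraries.

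**Figure D5:**
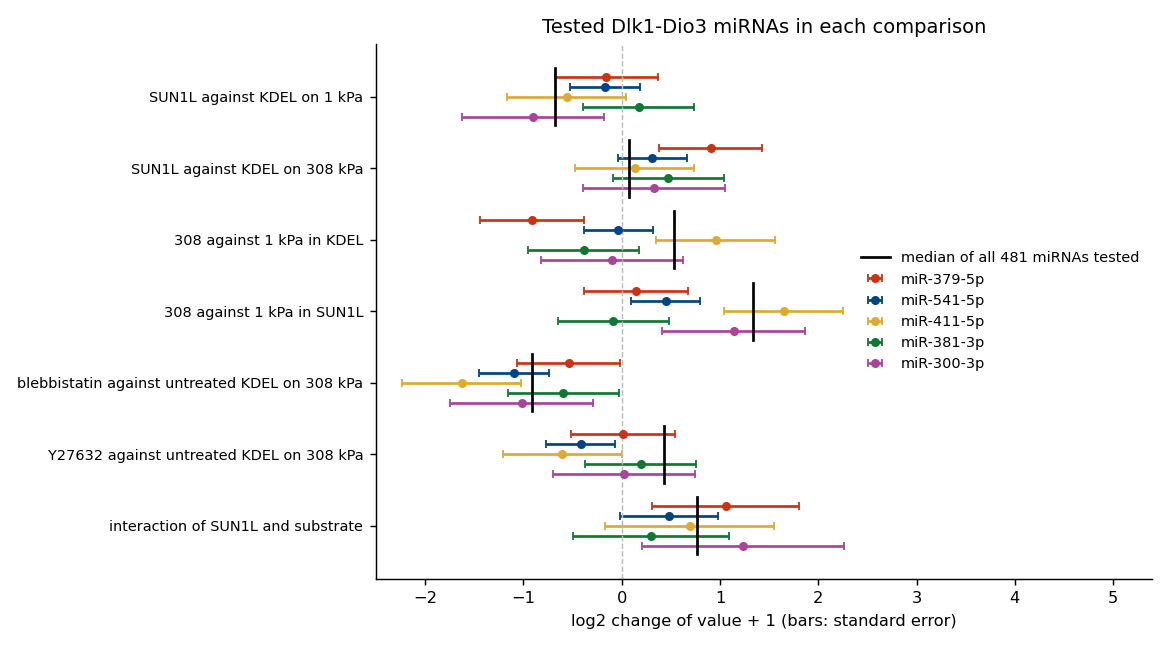
Points give the log2 change of value + 1 of the 5 tested members in each of the 7 comparisons, bars their standard errors and black lines the median of all 481 miRNAs tested. None of the members was called in any comparison, and miR-411-5p lies farthest from 0 in the comparison of gels in SUN1L cells (1.65) and in that with blebbistatin (-1.63).

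Below the filter, miR-382-5p was at the floor in all 3 untreated KDEL libraries on 308 kPa, and above it in the other 15 libraries. Its values were 4.19, 3.19 and 3.85 in KDEL and 4.15, 1.19 and 3.33 in SUN1L on 1 kPa, and 6.83, 2.72 and 4.81 in SUN1L on 308 kPa. With blebbistatin they were 1.33, 3.18 and 2.58, and with Y27632 4.46, 6.00 and 4.71. The counts behind them were small. The 3 untreated KDEL libraries on 308 kPa gave 0 reads, which allows up to 0.200 RPM by the limit of 3 reads over the group, and replicate 3 was a library in which the floor can hide 1 read. SUN1L on 308 kPa gave 13 reads, or 0.812 RPM (95% exact Poisson interval 0.432 to 1.39). This estimate was 4.05 times that limit, before its own counting error is allowed for. KDEL on 1 kPa also gave 13 reads, or 0.778 RPM, an estimate 3.88 times that limit. With the looser filter of a value of 3 in 3 libraries, which let in 14 members among 664 miRNAs, miR-382-5p had a log2 change of 1.47 ± 0.36 (SE; limma adjusted p = 0.0315) for SUN1L against KDEL on 308 kPa. It would have entered this filter through the 3 KDEL libraries on 1 kPa alone (3.19 to 4.19). It did not pass in the other 6 comparisons with that filter (adjusted p from 0.215 for stiffness in SUN1L to 0.804 for stiffness in KDEL). Against the same KDEL libraries Y27632 gave a larger log2 change, 1.59 ± 0.36 SE (limma unadjusted p = 0.000395, adjusted p = 0.262). For SUN1L the limma unadjusted p was 0.000807. The adjusted p also depends on the other miRNAs in each comparison. The fitted fold changes of miR-382-5p depend on the floor and on the added 1, and 18 of 664 miRNAs (2.71%) were called in the comparison of SUN1L and KDEL on 308 kPa. Epithelial and liver miRNAs moved with the same comparison: the 4 of the epithelial list summed to 365 to 513 against 129 to 242 in KDEL, and miR-122-5p was 23.1 to 36.5 against 4.66 to 15.6. These miRNAs differed between the cell pools on 1 kPa too. There the epithelial list summed to 191 to 382 in SUN1L against 96.5 to 152 in KDEL, and miR-122-5p was 23.8 to 35.3 against 11.7 to 17.7. Their part in the result was not tested.

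miR-494-3p had low values on the soft gel and higher ones on the stiff gel. On 1 kPa it had 1, 1.06 and 1.54 in KDEL and 1, 1.19 and 1.33 in SUN1L, and on 308 kPa 3.11, 5.29 and 2.75 in KDEL and 4.55, 4.08 and 6.73 in SUN1L. Soft and stiff libraries did not overlap in either pool, with 3 reads in each pool on the soft gel, and 10 in KDEL and 14 in SUN1L on the stiff one. The looser filter admitted it only through libraries on the stiff gel, so its fitted change with stiffness is not given as a result. With that filter 22 of 664 miRNAs (3.31%) were called for stiffness in SUN1L cells and 0 in KDEL cells. Values were 1, 2.38 and 1 with blebbistatin and 4.46, 2.00 and 1 with Y27632.

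The remaining members of the 20 most abundant were sparse in every group. miR-410-3p (35 reads) was at the floor in all 3 SUN1L libraries on 1 kPa and highest, at 7.77, in KDEL on 308 kPa replicate 1. miR-370-3p was above the floor in all 6 libraries on 1 kPa, in 1 of 3 for KDEL and 0 of 3 for SUN1L on 308 kPa, and in 2 of 3 with each inhibitor, on 31 reads in all. miR-329-5p, miR-495-3p, miR-299a-3p, miR-369-3p, miR-411-3p, miR-543-3p and miR-409-5p had 15 to 24 reads each, in 6 to 12 libraries. The number of members above the floor in a library ran from 10 in blebbistatin replicate 3 to 32 in Y27632 replicate 1. In those 2 libraries 26.4% and 42.8% of all names were above the floor, against 8.62% and 27.6% of the members.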

How the data were processed

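Small RNA was sequenced in 18 libraries (6 groups of 3). The authors trimmed 3′ adapters, removed reads under 15 nucleotides, filtered on quality, assigned reads to miRBase release 20 where the 5′ end matched the mature miRNA, and deposited a normalized signal per mature miRNA; how it was scaled is not given in the sources used here. The submitters' processing notes name FastQC and mm9. The deposited signal has a floor of 1. Of 77 names with several genomic copies, the copy of highest mean was kept, since the copies were not always the same. Reads were recovered from the steps of the values and used for levels and depth only, with no count model.

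Members are the mature miRNAs of chromosome 12 between 109.5 and 109.76 Mb. The members and lists were chosen with earlier results of these data known. Comparisons used limma 3.58.1 in R 4.3.3 with a trend on log2(signal + 1), all 18 libraries in 1 fit, a filter (10 or higher in 3 libraries or more), and Benjamini-Hochberg adjustment over 481 miRNAs. A fold change on this scale understates that of low miRNAs. Named members are those past the filter and, by mean level, the next up to 20 in all. Replicate numbers follow accession order. In the 12 untreated libraries they match the runs of library numbers, and what these runs stand for is not labelled. Other filters, added constants, scalings, weights and left-out libraries were tried. The limma fit was tried on simulated data, which held no library with an outlying profile like blebbistatin replicate 3. Drawing used Python 3.11.15 and matplotlib 3.10.9. Levels of Sun1, an mRNA, are not part of this table.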

Additional observations from a re-analysis of the deposited data

How the results depend on the processing

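In the 7 comparisons no member was called in the form reported, and the number called stayed at 0 under most alternatives. Between 308 and 1 kPa in SUN1L cells 1 member was called when only the groups compared were fitted, when the 12 untreated libraries were fitted with or without the run of library numbers as a term, and with array weights (miR-411-5p in each), but 57.8%, 66.9%, 70.9% (with that term) and 65.1% of all 481 miRNAs were called there too. The looser filter and no filter called 1 (miR-494-3p; 3.31% and 1.58% of all), admitted through the groups where it was high. Leaving out 1 library in turn gave 0 to 1. Between SUN1L and KDEL on 308 kPa 1 was called with the looser filter (miR-382-5p), 2 without a filter (miR-382-5p and miR-495-3p; 1.93% of all) and 1 with array weights (miR-379-5p; 53 of 481 miRNAs in all). Array weights also called 2 members for stiffness in KDEL cells (miR-379-5p lower, miR-411-5p higher; 226 of 481 miRNAs in all) and 1 with blebbistatin (miR-541-5p lower; 4.78% of all), but the estimation of these weights did not converge. The causes were not tested. Scaling by library sums was added after seeing the data and called no member. The stricter filter of 50 left no member to test, and count models were not run because the floor keeps the values from being whole reads throughout. Of the 55 detected members 32 were above the floor in at least 3 libraries, 35 had at least 3 reads and 6 reached a value of 10. Without miR-379-5p the domain gave 16.5 RPM in KDEL and 17.2 in SUN1L on 1 kPa and 18.8 in SUN1L on 308 kPa. Counting floor values as 1 read in the 8 libraries where the floor can hide one gave 32.97 in KDEL on 1 kPa, 28.6 in SUN1L on 308 kPa and 24.5 with blebbistatin, so that the floor limits how well the groups can be ranked. No paired analysis was possible because the labels give no replicate numbers shared between groups. The only term that joined libraries across groups was the run of library numbers, and it was fitted in the untreated groups only. For stiffness in KDEL cells 98 of 481 miRNAs were called with this term and 1 without it, and 0 of the 5 members in both fits. For the interaction these were 68 and 0, again with 0 members. The Y27632 libraries (numbers 42, 48 and 53) also fall 1 in each run, beside KDEL on 308 kPa (40, 46 and 52). Y27632 was not tested with the run as a term.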
